A study of Mus musculus with 18 samples.

Results

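H3K27ac and H3K27me3 were compared at the transcription starts of protein-coding genes in unstimulated bone marrow-derived macrophages (BMDM) of WT mice. Acetylation and trimethylation are alternative states of one residue, lysine 27 of histone H3. The members were the 20807 protein-coding genes that GENCODE release M21 places on chromosomes 1 to 19, of 21951 in the whole annotation. A gene was recorded as acetylated when any H3K27ac peak touched the window from 5 kb upstream to 5 kb downstream of its start, and as methylated when any H3K27me3 peak touched the same window. By this rule 5898 genes (28.3%) carried acetylation only and 6451 (31.0%) methylation only. Both marks were found at 957 genes (4.60%) and neither mark at 7501 (36.1%). These shares of all genes are the background against which each gene list is read below. The lists were chosen with earlier results of these data known, so none is an independent sample.

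The series compared BMDM of WT mice with those of mdx mice, a model of muscular dystrophy, and of mdx mice without TLR4, in 18 ChIP-seq and input libraries. Only the WT peaks of both marks enter here. The mice were male by the study's methods, the labels give their strain as C57BL6, and the cells received no treatment after 7 days of differentiation in medium with L929 supernatant, a source of M-CSF. Native chromatin was digested with micrococcal nuclease before immunoprecipitation, and each mark had 2 WT ChIP libraries. The labels give ages of 12 and 13 weeks for the H3K27me3 libraries and of 19 and 20 weeks for the H3K27ac libraries, and they rise by 1 week from library to library across the series, from 6 to 23 weeks. Whether labels that rise in such steps are the true ages of the mice is uncertain, and if they are, mark and age cannot be told apart. H3K27me3 had 2 WT input libraries, while the 1 H3K27ac input library is labelled with no genotype. The authors merged the reads of the replicates before they called peaks, so each mark has 1 list, no spread between mice can be given, and no p-value is reported.

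H3K27ac is laid down by the acetyltransferases CBP and p300 and marks active promoters and enhancers. H3K27me3 is laid down by Polycomb repressive complex 2, whose catalytic subunit is Ezh2 or Ezh1, and is read by Cbx proteins of Polycomb repressive complex 1. It covers genes that are held silent, among them the master regulators of other cell lineages. The acetyl group and the methyl groups cannot sit on the same lysine, although both tails of a nucleosome, neighbouring nucleosomes, both alleles or different cells of the culture can differ. Bulk chromatin does not tell these apart.

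Promoters of the 4 classes differed in base composition, and 1 or 2 genes of each class were chosen from the gene lists to show it, among those whose ratio of observed to expected CpG dinucleotides lay nearest the median of the class. The ratio was taken over 300 bases, from 250 upstream to 50 downstream of the start. Shown are the 250 bases upstream of the start in the GRCm38 genome, 5′ to 3′ on the strand of the gene, with CpG dinucleotides in capitals. The acetylation-only promoters are those of Csf2ra, a subunit of the GM-CSF receptor (chr19:61228430-61228679, minus strand), and of Rpl7, a ribosomal protein (chr1:16104663-16104912, minus strand). The methylation-only promoters are those of Gfi1b, an erythroid and megakaryocyte repressor (chr2:28621983-28622232, minus strand), and of Tbx15, a T-box factor of limb and skeleton (chr3:99240131-99240380, plus strand). The promoter with both marks nearby is that of Tal1, a regulator of blood stem and erythroid cells (chr4:115056176-115056425, plus strand). The promoters with neither mark are those of Fabp2, an intestinal fatty acid binding protein (chr3:122894822-122895071, plus strand), and of Bmp5, a bone morphogenetic protein (chr9:75775114-75775363, plus strand).
Csf2ra: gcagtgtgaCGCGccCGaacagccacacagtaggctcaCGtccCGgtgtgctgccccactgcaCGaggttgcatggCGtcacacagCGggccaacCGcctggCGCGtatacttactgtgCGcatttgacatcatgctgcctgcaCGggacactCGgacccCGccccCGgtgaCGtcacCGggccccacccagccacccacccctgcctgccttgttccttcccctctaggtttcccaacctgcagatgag
Rpl7: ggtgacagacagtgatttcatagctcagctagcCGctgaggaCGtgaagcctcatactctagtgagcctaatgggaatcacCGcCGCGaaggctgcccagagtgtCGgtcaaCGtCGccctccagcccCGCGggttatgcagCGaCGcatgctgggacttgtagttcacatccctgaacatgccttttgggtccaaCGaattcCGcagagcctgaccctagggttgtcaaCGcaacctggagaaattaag
Gfi1b: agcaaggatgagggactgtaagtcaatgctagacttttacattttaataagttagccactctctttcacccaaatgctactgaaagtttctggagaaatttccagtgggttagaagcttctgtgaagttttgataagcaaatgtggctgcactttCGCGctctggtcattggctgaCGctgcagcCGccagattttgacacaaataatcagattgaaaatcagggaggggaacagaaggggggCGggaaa
Tbx15: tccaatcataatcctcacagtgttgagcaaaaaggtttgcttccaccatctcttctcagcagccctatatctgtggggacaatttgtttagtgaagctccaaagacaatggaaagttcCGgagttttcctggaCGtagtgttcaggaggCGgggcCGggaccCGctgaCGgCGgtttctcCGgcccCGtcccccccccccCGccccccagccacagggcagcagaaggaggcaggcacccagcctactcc
Tal1: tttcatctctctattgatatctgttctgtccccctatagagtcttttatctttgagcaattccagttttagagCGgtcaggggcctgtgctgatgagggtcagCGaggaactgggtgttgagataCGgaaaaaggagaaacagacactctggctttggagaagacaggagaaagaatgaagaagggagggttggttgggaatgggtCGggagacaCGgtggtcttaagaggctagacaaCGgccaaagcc
Fabp2: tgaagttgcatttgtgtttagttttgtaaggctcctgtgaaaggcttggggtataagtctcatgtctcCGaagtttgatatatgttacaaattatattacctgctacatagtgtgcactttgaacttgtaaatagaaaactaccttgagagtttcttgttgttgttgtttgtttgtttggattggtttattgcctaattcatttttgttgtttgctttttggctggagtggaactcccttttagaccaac
Bmp5: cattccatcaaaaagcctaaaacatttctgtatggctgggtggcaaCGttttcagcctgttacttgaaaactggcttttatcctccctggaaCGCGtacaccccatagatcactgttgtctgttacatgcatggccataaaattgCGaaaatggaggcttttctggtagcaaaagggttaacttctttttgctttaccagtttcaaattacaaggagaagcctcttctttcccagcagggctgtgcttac
The stretches upstream of Csf2ra and Rpl7 hold 18 and 15 CpG dinucleotides, those of Gfi1b and Tbx15 hold 5 and 10, that of Tal1 holds 6, and those of Fabp2 and Bmp5 hold 1 and 4. Over the 300 bases Tal1 holds 11, below the median of 17 for genes with both marks. The median number was 20 with acetylation only, 11 with methylation only and 4 with neither mark.

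The H3K27ac list held 14962 peaks on chromosomes 1 to 19 and the H3K27me3 list 28024. A peak is a stretch of enriched 200 bp windows joined across gaps of up to 600 bp, and its value is a count of ChIP reads, not scaled for depth or length. H3K27ac peaks had a median length of 1800 bp (interquartile range 1200 to 2800) and a median of 11 reads, and covered 31.7 Mb. H3K27me3 peaks were domains with a median length of 5400 bp (3600 to 9400) and a median of 123 reads, and covered 252 Mb. In all, 266063 reads lay in the H3K27ac peaks and 8315029 in the H3K27me3 peaks. The depth of the libraries is unknown. No listed H3K27ac peak had fewer than 5 reads and no H3K27me3 peak fewer than 27, so a gene without a peak had no mark detectable at this depth, which does not show that the mark was absent.

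The labelled cell type was checked on marker genes. All 8 macrophage markers (Lyz2, Cd68, Adgre1, Csf1r, Spi1, Mertk, Fcgr1 and Itgam) carried acetylation only, with 12 to 162 H3K27ac reads and 0% of the window under H3K27me3. No H3K27ac peak lay within 5 kb of any of 6 neutrophil, 4 T cell, 3 erythroid, 3 mast cell or 4 fibroblast markers. Of 4 B cell markers, Ms4a1 and Cd79a had a peak of at most 11 reads, and of 3 endothelial markers Pecam1, which macrophages also express, had 46 reads. These markers are few, and longer lists of the same lineages did hold acetylated genes: 6 of 27 B and T lymphocyte genes and 2 of 21 neutrophil and mast cell genes had a H3K27ac peak, and 10 of 38 surface and lysosomal genes of macrophages were outside the acetylation-only class. The part that other cells of the culture have in the H3K27ac peaks was not tested.

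Few starts had both marks nearby. Any H3K27ac peak was present at 6855 genes (32.9%; Wilson 95% interval 32.3 to 33.6) and any H3K27me3 peak at 7408 (35.6%; 35.0 to 36.3). Of the genes without H3K27me3, 44.0% were acetylated, against 12.9% of the genes with it. Conversely, 14.0% of the acetylated genes had H3K27me3 in the window. These intervals cover counting error only and treat genes as independent, although neighbours share peaks: 1370 H3K27ac peaks and 1226 H3K27me3 peaks touched the windows of at least 2 genes.

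The share of acetylated genes was lower at each step of H3K27me3 cover. It was 44.0% (43.2 to 44.9) among the 13399 genes with no H3K27me3 in the window and 38.0% (34.6 to 41.6) where up to 20% of the window was covered. It was 25.2% at 20 to 40% cover, 15.1% at 40 to 60% and 7.89% at 60 to 80%. At 80% to below 100% it was 2.93%, and of the 1783 genes whose window was covered from end to end 19 were acetylated (1.07%; 0.683 to 1.66). The intervals of neighbouring steps did not overlap, but they cover counting error only and treat genes that share peaks as independent. They are no test between steps. The acetylated genes themselves differed along the same steps. Their median H3K27ac count was 17 reads with no H3K27me3 and 9 reads at full cover, and their start itself lay under H3K27ac in 77.4% and 10.5% of cases.

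**Figure D1:**
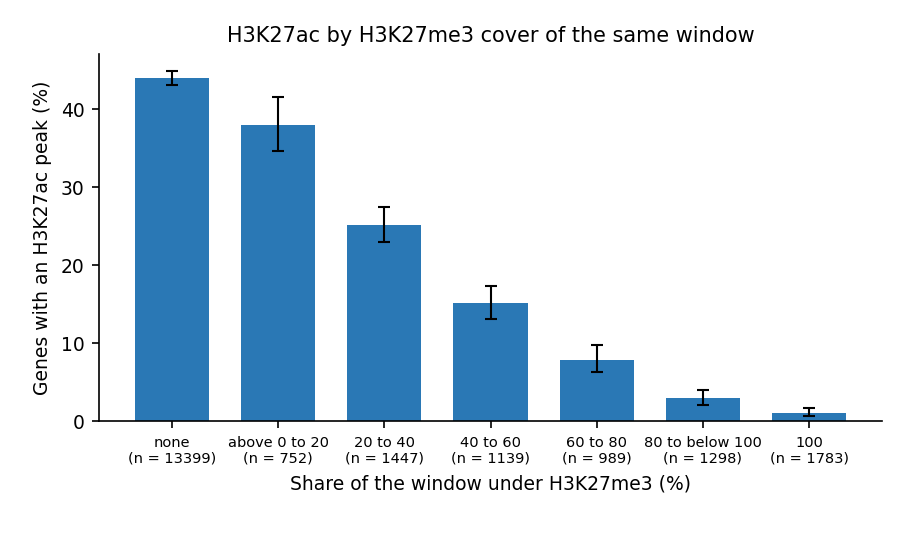
Share of genes with an H3K27ac peak within 5 kb of the start (y axis, %) by the share of the same window under H3K27me3 (x axis, %), with Wilson 95% intervals as bars and the number of genes below each step. The share is 44.0% for genes with no H3K27me3 and 1.07% for genes whose window is fully covered.

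The marks also had different shapes around the start. In the acetylation-only class the peak sat on the start in 4566 of 5898 genes (77.4%) and covered a median of 2200 bp of the window with 17 reads. In the methylation-only class the domain covered the start in 4905 of 6451 genes (76.0%), a median of 75.3% of the window, and the whole window in 1764 genes (27.3%). The longest domain touching a methylation-only window had a median length of 11400 bp, and the domains went on past the window: a median of 43.5% of the flanking 20 kb on each side and 59.4% of the gene body lay under H3K27me3. Genes with neither mark had a median of 0% in the flanks and the gene body. Genes with acetylation only also had medians of 0%, and 51.8% of them had H3K27ac in the flanks, against 23.2% of methylation-only genes.

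**Figure D2:**
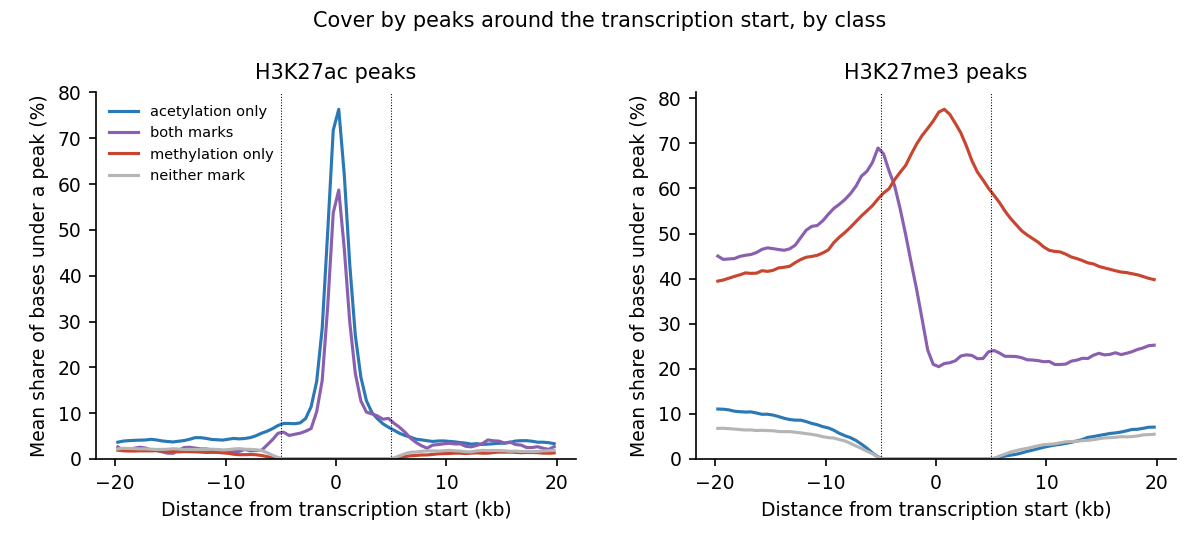
Mean share of bases under an H3K27ac peak (left) and an H3K27me3 peak (right) (y axes, %) by distance from the transcription start (x axes, kb, in 500 bp bins), for the 4 classes; the dotted lines mark the window that defined the classes. H3K27ac is centred on the start, and in genes with both marks H3K27me3 is high 5 kb upstream (69.0%) and low just after the start (20.5%).

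Macrophage transcription factors were mostly acetylated. Of 24 on the list, 16 carried acetylation only (66.7% against 28.3% of all genes), 4 both marks, 2 methylation only and 2 neither. The highest H3K27ac counts were those of Zeb2, a repressor needed for macrophage identity, with 272 reads (exact Poisson 95% interval 241 to 306), Irf5, an activator of inflammatory cytokine genes, with 148 (125 to 174), and Spi1, which encodes PU.1, with 108 (88.6 to 130). Maf had 96 reads, Nr1h3, the oxysterol receptor LXR alpha, had 75, and Stat3 and Stat6, which relay IL-10 and IL-4 signals, had 48 and 40. Cebpa and Cebpb, the C/EBP factors of myeloid cells, had 22 and 28 reads, with the nearest peak 93 and 1086 bp from the start.

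At Runx1, Fli1 and Ets2, which had both marks, the peaks lay side by side. Runx1, a regulator of blood cell formation, had 67 reads (51.9 to 85.1) over the start and a H3K27me3 peak of 3.4 kb that ended 1852 bp upstream. Fli1 had 31 reads and Ets2 had 7, with gaps of 3200 and 2200 bp to H3K27me3 that lay upstream of the start in each gene. Pparg and Tfeb, regulators of lipid and of lysosomal genes, carried methylation only, at 14.0% and 37.7% of the window and with the start uncovered. Atf3 and Mitf carried neither mark in the window. The nearest H3K27ac peaks lay just outside it, 6162 bp upstream of Atf3 (40 reads) and 6349 bp downstream of the Mitf start (11 reads).

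**Figure D3:**
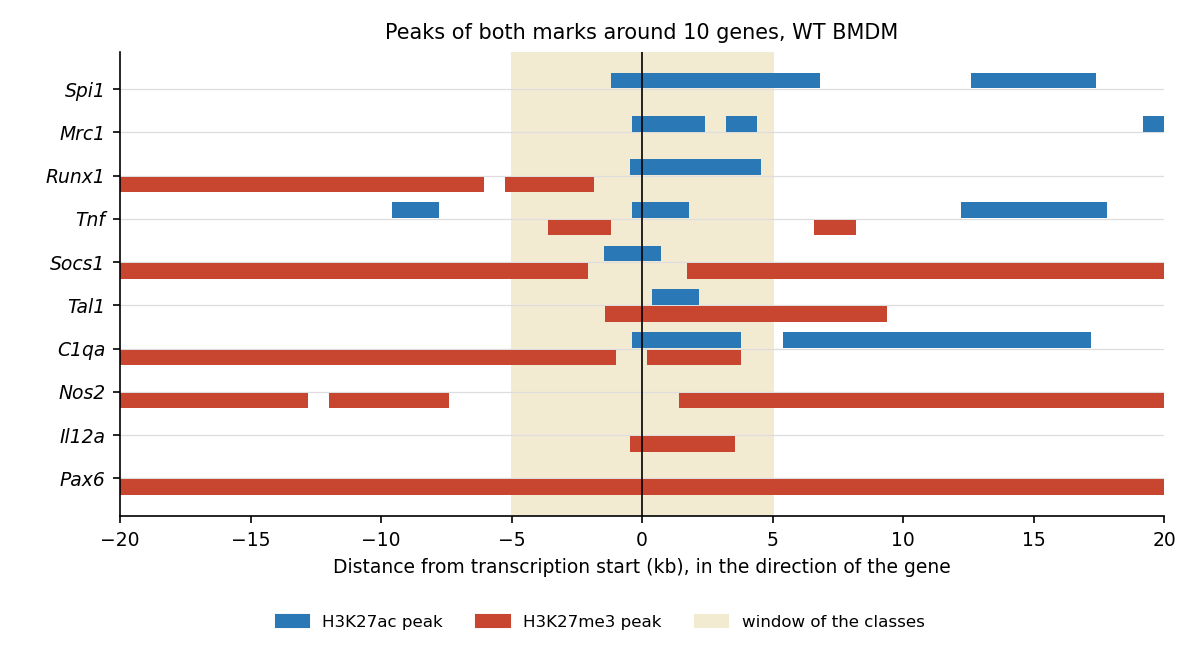
H3K27ac peaks (blue) and H3K27me3 peaks (red) around 10 genes, by distance from the transcription start in kb in the direction of the gene (x axis); the shaded band is the window of the classes, and peaks are cut at 20 kb. Spi1 and Mrc1 hold H3K27ac only, Pax6, Il12a and Nos2 H3K27me3 only, and at Runx1, Tnf and Socs1 the marks lie side by side, while at Tal1 and C1qa they overlap.

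Surface receptors and lysosomal genes of macrophages were also mostly acetylated. Of 38 genes found, 28 carried acetylation only (73.7% against 28.3% of all genes), 1 both marks, 2 methylation only and 7 neither. The lysosomal proteases Ctsb and Ctsd had 268 (237 to 302) and 101 reads, Lgals3 had 150, Lyz2, the macrophage lysozyme, had 122, and Csf1r, the receptor for M-CSF, had 162 (138 to 189). Of the Csf1r reads, 154 came from a peak 2603 to 9002 bp downstream of the start, partly outside the window. The Csf1r start itself was not under a peak. Tyrobp, the adaptor of Trem2, had 109 and Trem2 itself 49. Among the Toll-like receptors, Tlr4 had 44 reads (32.0 to 59.1), Tlr2 27 and Tlr6 78, and Tlr1, a neighbour of Tlr6, carried neither mark. The median over the acetylated members was 44 reads, against 16 over all acetylated genes. Marco, a scavenger receptor, had its start under H3K27me3 with 38.0% of the window covered, and Itgax (CD11c) had 1.47%. Axl, Ccr2, Cd36, Cd9, Cx3cr1 and Lpl carried neither mark. The gene with both marks was Fcgr3, whose H3K27ac peak reached 66 bp into the window and whose H3K27me3 domain was one of 16 above 100 reads per kb.

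The study followed 8 markers of inflammatory and alternative activation by ChIP, and these fell into all 4 classes. The list was picked by the study, so it is not an independent sample of such genes. Arg1, the arginase of alternatively activated macrophages, carried acetylation only with 18 reads (10.7 to 28.5) in a peak 317 bp upstream of its start. Mrc1 (CD206), the mannose receptor, had 25 reads (16.2 to 36.9) and Tgfb1 31 (21.1 to 44.0), with the start under H3K27ac in both. Nos2 (iNOS), which makes nitric oxide, carried methylation only: a domain of 36.8 kb with 1717 reads began 1414 bp downstream of the start and covered 93.2% of the gene body. Il12a, a subunit of IL-12, carried methylation only in a peak of 4.0 kb over the start, with 191 reads. Tnf had both, 12 reads of H3K27ac (6.20 to 21.0) over the start and a H3K27me3 peak of 2.4 kb with 60 reads upstream, 800 bp away. Chil3 and Il6 had neither mark within 5 kb.

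Cytokine and chemokine genes that are induced by inflammatory signals had shares of the 4 classes near those of all genes. Of 34 found, 8 carried acetylation only (23.5% against 28.3% of all genes), 11 methylation only (32.4% against 31.0%), 2 both and 13 neither (38.2% against 36.1%). The acetylated members were Ccl3, Ccl4, Ccl9, Cxcl10, Il10, Il15, Il18 and Il23a, with 13 to 30 reads. Csf2, which encodes GM-CSF, had a window covered in full by a domain of 26.8 kb, Ccl24 and Ccl22 had 92% and 88.0% covered, and Il1b had 38.0% with the start covered. The CC chemokine cluster on chromosome 11 was mixed: Ccl12 had both marks, with 49 H3K27ac reads (36.2 to 64.8) at 24.0% H3K27me3 cover, while Ccl2, Ccl7 and Ccl8 nearby carried methylation only at 40.3%, 11.1% and 59.8%. Ccl5, Cxcl2, Cxcl3, Cxcl9, Ifnb1, Il1a, Il12b, Il27, Csf3 and Ptgs2 were among those with neither.

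Genes linked to alternative activation were also near the background, with 5 of 17 acetylated only (29.4%), 4 methylated only (23.5%), 1 with both and 7 with neither (41.2%). The IL-4 receptor chain Il4ra had 42 reads (30.3 to 56.8), Il10ra 37 and Cd200r1 30. The SOCS genes, which encode inhibitors of cytokine receptor signalling, stood on the methylated side. Socs2 had 78% and Socs3 37.5% of the window under H3K27me3 and no H3K27ac peak, and Socs1 had both. At Socs1 a H3K27ac peak of 2.2 kb with 23 reads (14.6 to 34.5) lay over the start between domains of 46.6 kb upstream and 26.8 kb downstream, the nearer 600 bp away. Irf4, needed for alternative polarisation, was methylated over its start at 42%, and Retnla, Ear2, Clec10a, Mgl2, Cd163, Pdcd1lg2 and Chil3 carried neither mark.

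Most of the listed housekeeping genes had H3K27ac within 5 kb of the start. The start itself was under a peak in 24 of 33 ribosomal protein genes and 9 of 20 glycolytic genes. Of the 33 cytosolic ribosomal protein genes on the list, 27 carried acetylation only (81.8% against 28.3% of all genes), 3 both and 3 neither, and none methylation only. The wider symbol stems, which can join unrelated genes, were less uniform. Acetylation only was carried by 31 of 51 Rpl genes (60.8%) and 25 of 41 Rps genes (61.0%), and methylation only by 2 and 3. The H3K27ac counts of the listed ribosomal genes were modest, with a median of 14.5 reads over the 30 acetylated members. Rps15, Rpl13 and Rps3, the genes with both marks, had 14.5%, 1.50% and 26.0% of the window under H3K27me3, with gaps of 2800, 4400 and 1600 bp between the H3K27me3 peak and the H3K27ac peak over the start. Among 20 glycolytic enzymes 14 carried acetylation only (70% against 28.3% of all genes). They included Pkm with 59 reads, Hk3 with 54, Gapdh with 37, Ldha with 35 and Eno1 with 31. The 5 that carried methylation only were Hk1 (100% of the window) and 4 isoenzymes best known from other tissues, Eno2 of neurons (90.7%), Pgam2 of muscle (35.3%), Ldhc of testis (36%) and Ldhb of heart (22.0%). The window of Hk1 stood on 1 annotated start with a CpG ratio of 0.0507, and 13.1% of its gene body lay under H3K27me3. The testis gene Pgk2 carried neither.

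The enzymes and readers of lysine 27 themselves fell into different classes. Of 28 genes, 14 carried acetylation only (50% against 28.3% of all genes) and 7 methylation only (25% against 31.0%). Another 2 had both and 5 neither (17.9% against 36.1%). The core subunits of the methyltransferase complex carried acetylation only, Eed with 37 reads, Rbbp4 with 27, Suz12 with 13, and Ezh2 and Ezh1 with 7 each (2.81 to 14.4). The counts of Ezh2 and Ezh1 lay near the smallest listed H3K27ac peak, of 5 reads. In the whole list the start itself was under H3K27ac in 10 of 28 genes. The demethylase Kdm6b had 84 reads (67.0 to 104) and the acetyltransferase Ep300 had 30. Crebbp, the partner of Ep300, had both marks, with 8 reads and a H3K27me3 peak of 4.2 kb that overlapped H3K27ac by 200 bp. Several Cbx genes of Polycomb complex 1 stood on the other side. Cbx7, Cbx2, Cbx8 and Cbx6 carried methylation only, at 92.8%, 88.4%, 86.0% and 40.9% of the window. Bmi1, Phf19 and Hdac7 were also methylated only, at 28.0%, 38.3% and 61.0%.

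**Figure D4:**
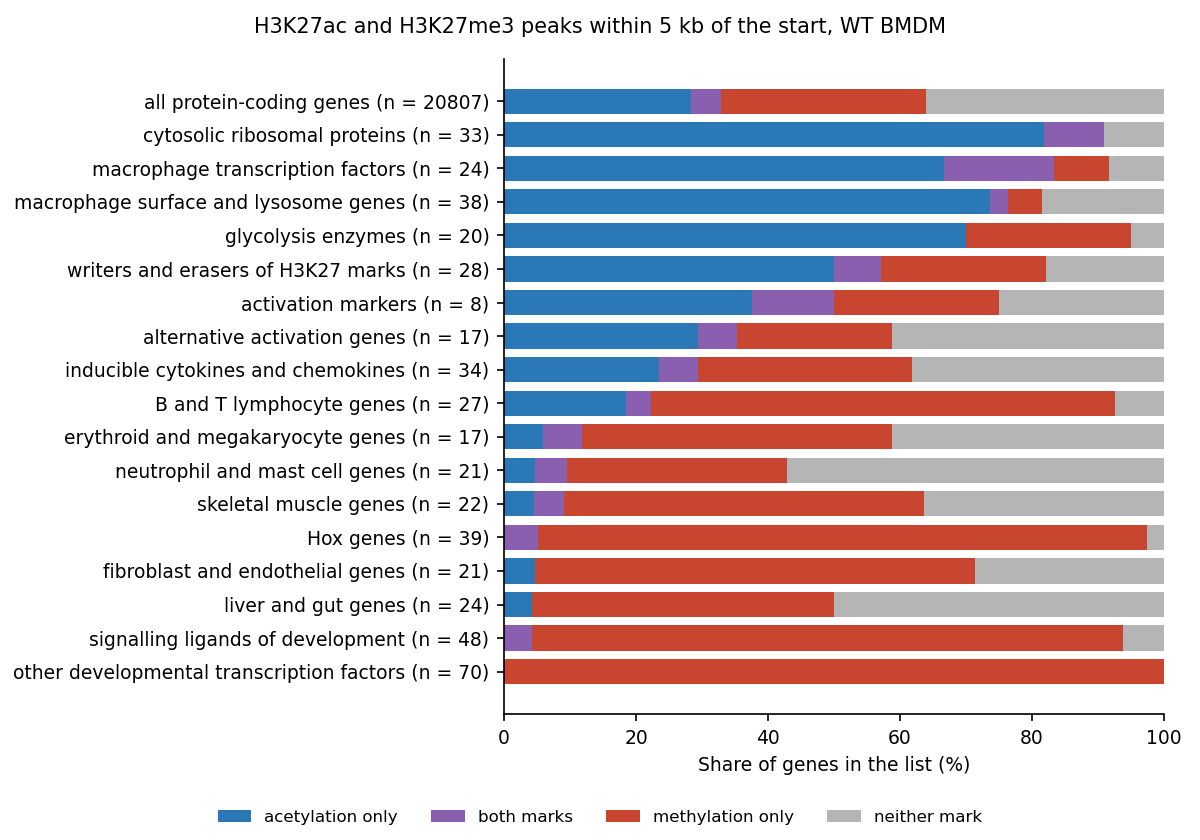
Share of genes (x axis, %) with acetylation only (blue), both marks (violet), methylation only (red) and neither mark (grey) for all protein-coding genes and 17 gene lists (rows, with the number of genes found). Ribosomal, macrophage and glycolysis genes stand at the top with at least 66.7% acetylated only. The 70 listed developmental transcription factors at the bottom are methylated only.

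The listed developmental regulators were covered by H3K27me3 almost without exception. The lists were chosen with earlier results of these data known, so their members are not an independent sample. All 70 listed transcription factors of development outside the Hox clusters carried methylation only (against 31.0% of all genes). The start was under H3K27me3 in all 70 and the window was fully covered in 55. Gata2 of blood stem cells, Gata6 of heart and endoderm and Pax6 of the eye had the window covered in full, by domains of 26.0, 18.8 and 46.2 kb. Sox2, a factor of stem and neural cells, had 86.0% covered by a domain of 20.4 kb. Of 48 signalling ligands of development, 43 carried methylation only, 2 both and 3 neither. Wnt1 lay in a domain of 47.6 kb with 3205 reads and Shh had 88.0% of the window covered. Bmp2 and Jag1 had both, with 7 and 12 H3K27ac reads next to H3K27me3 and gaps of 600 and 1200 bp. Bmp5, Fgf10 and Sema3a had neither.

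Of the 39 Hox genes, 36 carried methylation only (92.3% against 31.0% of all genes), with 31 of the windows fully covered. Hoxa9 lay in a domain of 96.8 kb with 7360 reads, Hoxd13 in one of 67.6 kb, and Hoxb4 at the edge of one of 199.2 kb (chr11:96118401-96317600, 13938 reads). Hoxb4 had both marks, with 7 H3K27ac reads (2.81 to 14.4) in a peak of 0.8 kb that lay 2867 bp upstream, inside the domain. Hoxb3, whose annotated start lies 5726 bp from the same domain, had neither mark in the window, although 72.1% of its gene body was methylated.

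Genes of other lineages were methylated or bare, in proportions that differed between lineages. Of 27 B and T lymphocyte genes, 19 carried methylation only (70.4% against 31.0% of all genes). Among them Cd3e, Gata3, Tbx21 and Pax5 had the whole window covered. Fibroblast and endothelial genes followed with 14 of 21 (66.7%), Col1a1 lying in a domain of 121400 bp. Skeletal muscle genes had 12 of 22 (54.5%), Myod1 at 92%. Erythroid and megakaryocyte genes had 8 of 17 (47.1%) and liver and gut genes 11 of 24 (45.8%). In the last list the transcription factors Hnf4a and Cdx2 were fully covered, while secreted products such as Alb, Afp, Ttr and Fga carried neither mark. Neutrophil and mast cell genes were most often bare, with 12 of 21 carrying neither mark (57.1% against 36.1% of all genes). Methylation only was found at 7 of them (33.3%), near the 31.0% of all genes. Mpo, Kit and S100a9 were methylated at 81.8%, 91.1% and 46.8%, and Elane, S100a8, Ltf and Lcn2 had no peak of either mark.

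A few genes of these lineages were acetylated. Pf4 (platelet factor 4) had 45 reads (32.8 to 60.2) over its start and Pecam1 46 next to its start. Vpreb1, Il7r, Cd79a, Ms4a1 and Rag2 had 28, 20, 11, 7 and 7 reads, and only those of Vpreb1 and Il7r were on the start. Tal1, Cebpe, Acta1 and Cd4 had both marks with 6 to 10 H3K27ac reads. At Tal1 a H3K27ac peak of 1.8 kb lay wholly inside a H3K27me3 domain of 10.8 kb that covered the start, and at Acta1, the skeletal muscle actin, one of 0.4 kb with 6 reads lay inside a domain of 10.0 kb.

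The 957 genes with both marks had lower H3K27ac counts and less H3K27me3 cover than the genes with that mark alone. Their median H3K27ac count was 13 reads against 17, with 1600 against 2200 bases of the window under H3K27ac. The median density of the densest H3K27ac peak was similar, at 8.1 (interquartile range 5.7 to 12) against 8.5 reads per kb (6 to 12.2). The median H3K27me3 cover of the window was 29.3% against 75.3%, and the longest domain had a median of 7800 bp against 11400 bp. These medians come from 1 list per mark and were not tested. The peaks lay side by side without a shared base in 806 genes (84.2%), with a median gap of 2000 bp (interquartile range 800 to 3200). H3K27me3 lay only upstream of the start in 586 genes (61.2%), only downstream in 140 (14.6%) and on both sides in 231 (24.1%). The start was under H3K27ac alone in 542 genes (56.6%), under H3K27me3 alone in 166, under both in 27 and under neither in 222.

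In the other 151 genes (15.8%) the peaks shared bases, a median of 600 bp, and 133 distinct H3K27ac peaks lay behind them. In 52 of these the acetylated bases of the window were entirely within H3K27me3. Long overlaps were those of Bahcc1 (4747 bp, 36 H3K27ac reads), C1qa (3600 bp, 17 reads), Gm13697 (3200 bp) and C1qc (3065 bp). Whether the reads at Gm13697 map uniquely was not tested. The C1q genes encode the complement component that macrophages secrete. C1qa and C1qc share a H3K27ac peak of 4.2 kb with 17 reads that overlaps a H3K27me3 peak of 3.6 kb with 101 reads, beside a H3K27me3 domain of 80.0 kb. C1qc also had a H3K27ac peak of 11.8 kb with 196 reads, and C1qb, within 5 kb of the same peak, carried acetylation only. Overlapping genes had lower H3K27ac counts and more H3K27me3 than side-by-side genes, with medians of 10 against 13 reads and 56.0% against 26.3% of the window. The cover is not independent of this split, since a window with more H3K27me3 is more likely to hold shared bases. The read counts are not scaled for peak length. The densest H3K27ac peak of the class was that of Phf21a, 19 reads in 200 bp inside a fully covered window, followed by Arrdc3, a regulator of receptor trafficking, with 213 reads in 4400 bp and H3K27me3 2000 bp away. The count of this class changed with the rule: it was 182 with 1 kb on each side of the start, 27 at the start base itself and 180 where at least 50% of the window had to be methylated. The share whose peaks shared bases changed with it, from 15.8% to 46.7% within 1 kb and 46.1% at 50% cover, and at the start base it is 100% by construction.

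The classes differed in the CpG content of their promoters. The median ratio of observed to expected CpG was 0.766 in acetylation-only promoters (interquartile range 0.531 to 0.915), 0.693 with both marks (0.412 to 0.873), 0.493 with methylation only (0.239 to 0.742) and 0.281 with neither mark (0.110 to 0.685). The median GC content was 59.2%, 58.0%, 57.0% and 48.7%. A ratio above 0.6, a common mark of CpG islands, was found in 69.5%, 61.1%, 39.8% and 29.5% of the classes and in 45.5% of all genes. The lists cut across this order: Hox genes and developmental transcription factors, nearly all methylated, had median ratios of 0.744 and 0.698, while the mostly acetylated surface and lysosomal genes of macrophages had 0.319. Spi1, Lyz2 and Tyrobp were acetylated at ratios of 0.166, 0.0801 and 0.190. Where at least 50% of the window had to be methylated, genes with both marks lay below the methylation-only genes, at 0.406 against 0.466.

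Acetylation-only genes made up 9.50% of the promoters below a ratio of 0.2 and 52.9% of those at 1.0 and over, and genes with neither mark 61.2% and 21.9%. Methylation only was most frequent in between, at 42% for ratios of 0.4 to 0.6. A bare window was also found at CpG-rich promoters, since 2210 genes with neither mark had a ratio above 0.6. Another start was near more often in acetylated genes: 26.5% of acetylation-only genes had another protein-coding start within 1 kb, against 12.1% with both marks, 5.83% with methylation only and 8.32% with neither, so that 1 peak often stood for more than 1 gene.

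**Figure D5:**
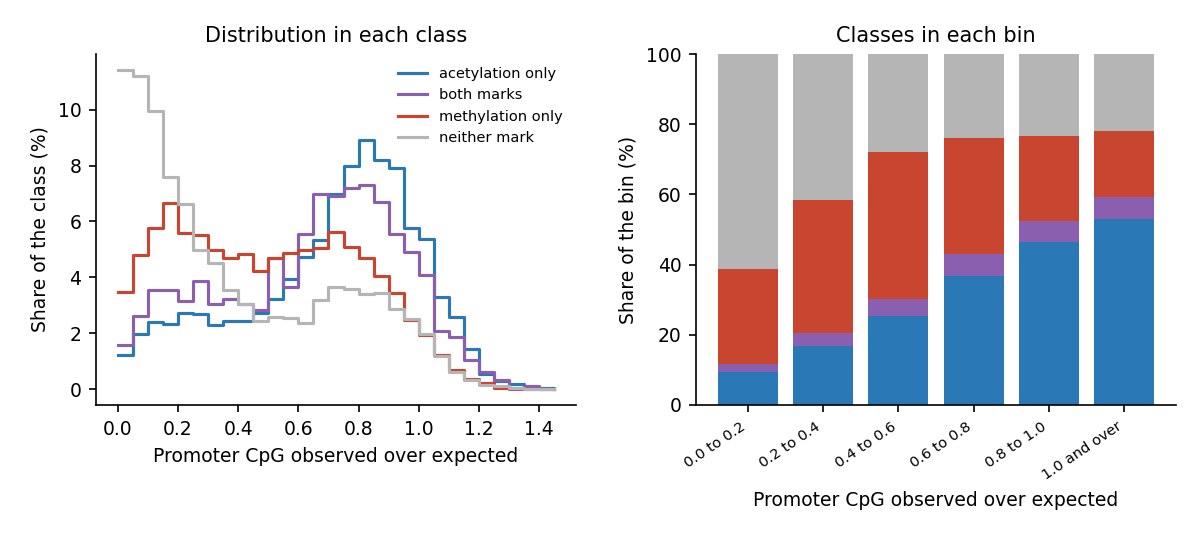
Left, share of each class (y axis, %) by the promoter ratio of observed to expected CpG (x axis, bins of 0.05); right, share of the 4 classes (y axis, %; blue acetylation only, violet both, red methylation only, grey neither) in bins of the same ratio. Acetylation-only genes make up 52.9% of the last bin, and genes with neither mark make up 61.2% of the first.

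Short promoter motifs were searched in the same 300 bases. The GC box GGGCGG, on either strand, was present in 43.7% of all promoters, and in 58.6% of those with acetylation only, 54.1% with both, 45.7% with methylation only and 28.9% with neither. The letters TATAAA on the sense strand from -45 to -15 were present in 2.71% of all promoters, with 68 of 5898 acetylation-only promoters, 8 of 957 with both, 173 of 6451 with methylation only and 315 of 7501 with neither. GAGGAAGT, a sequence bound by PU.1, was found on either strand in 3.26% of all promoters, 3.88% with acetylation only, 3.76% with both, 1.95% with methylation only and 3.83% with neither. CCAAT ranged from 35.4% with methylation only to 40.5% with neither mark, the AP-1 sequence TGACTCA from 3.09% with acetylation only to 5.36% with neither, and CACGTG from 6.07% with neither to 9.95% with acetylation only. GGGCGG contains a CpG and so shares letters with the ratio above. A match is a run of letters and not a bound site.

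Some gene families lay mostly in 1 class. Of 50 families with at least 30 genes sharing a symbol stem, 6 had over 80% of their genes in 1 class, while 28 had under 50% in any class. Of 67 genes whose symbol starts with Hist, 63 carried acetylation only (94.0%), and 30 consecutive starts on chromosome 13 from Hist1h4h to Hist1h1a, Hfe among them, and 18 more from Hist1h2bl to Hist1h2br were all acetylated. Keratin genes lay at the other end, 39 of 53 carrying methylation only, with a run of 28 genes on chromosome 15 from Krt7 to Krt18. Of 43 collagen genes 30 were methylated only. Of 1128 olfactory receptor genes 1012 carried neither mark (89.7%), as did 314 of 329 vomeronasal receptor genes. The longest run with both marks was of 6 genes from Gm13693 to Gm13691 on chromosome 2, followed by 4 genes of the Cd300ld group and 4 of the Hspa1 group. The starts of the run of 6 lay in 1 H3K27me3 domain of 44.8 kb, and whether reads there map uniquely was not tested. The longest run with neither mark was of 160 genes on chromosome 2 from Olfr1034 to Olfr1232, Gm13723 among them. Histone, olfactory receptor and vomeronasal genes have near-identical copies, and the handling of reads that map to several of them is not given in the sources used here, so single members are uncertain.

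By chromosome, methylation only ranged from 26.8% of genes on chromosome 13 to 45.2% on chromosome 15, and acetylation only from 23.4% on chromosome 7 to 33.9% on chromosome 12. Genes with neither mark made up 44.2% of chromosome 7 and 23.8% of chromosome 15.

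The read counts at some starts came from a few very dense peaks. In the H3K27ac list 16 peaks exceeded 100 reads per kb and held 6.85% of all reads in peaks, and 1 of them, chr9:3000001-3038400, held 4.12%. The 5 acetylation-only genes with the highest density, Gm10800, Gm10801, Gm21738, Gm10715 and Gm10717, all lay at such peaks, with up to 2014 reads per kb. In the methylation-only class the 5 densest were Cchcr1, H2-Q10, H2-Q6, H2-Q7 and Pou5f1, whose windows lay in or next to 1 domain (chr17:35374001-35516200, 116 reads per kb). Whether the reads at these peaks map uniquely was not tested.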

How the data were processed

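H3K27ac and H3K27me3 were measured by native ChIP-seq in BMDM of WT mice. Per the submitters' processing notes and the study's methods, base calls came from CASAVA 1.8, adapters were removed with cutadapt 1.15, reads were mapped to mm10 with Bowtie2 2.3.4, replicates were merged, and peaks were called with SICER 2.0 (window 200 bp, gap 600 bp, FDR 0.01). The deposited peak lists give a read count per peak, as SICER wrote it, without scaling for depth or length and without input subtraction. The treatment of duplicate and multi-mapping reads is not given in the sources used here.

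Here the WT peaks on chromosomes 1 to 19 were intersected with windows of 5 kb on each side of the starts of protein-coding genes of GENCODE M21 (gene starts, GRCm38). The H3K27ac count of a gene is the sum over whole peaks that touch its window. Intervals are Wilson for shares and exact Poisson for counts, at 95%, and cover counting error only. Peak lists are from pooled replicates, so no test was possible. Members and gene lists were chosen with earlier results of these data known. Genes named were the study's 8 markers, the macrophage transcription factors, the members of each list outside its most frequent class (up to 6, by reads), and in each class the 5 with the densest peak or, with both marks, also the 5 with most shared bases. A few genes that these rules name are not reported here. Other genes were added as examples after their values were seen. Of 488 list symbols, 7 matched no single gene on these chromosomes. The procedure recovered the class of 100% of 4000 genes simulated for the comparison of the marks. Python 3.11.15, numpy 2.4.6, pandas 2.3.3, scipy 1.17.1 and matplotlib 3.10.9 were used. The peak lists of the mdx groups and the read tracks were not used here.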

Additional observations from a re-analysis of the deposited data

How the results depend on the processing

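The classes were recounted under 12 alternatives and under 1 added after seeing the data, which left out peaks above 100 reads per kb. Counts of genes with methylation only (4440 to 6788) and with neither mark (5654 to 10601) stayed within 1.5 times the reported counts in all 13. Genes with acetylation only did so in 12, and numbered 3316 without genes that have another start within 10 kb, where fewer genes were counted. Genes with both marks, and those sharing bases, numbered 180 and 83 with at least 50% of the window methylated, 182 and 85 with 1 kb on each side, 27 and 27 at the start base, 625 and 98 with the upstream 5 kb only, 620 and 76 with H3K27ac peaks of at least 10 reads, and 586 and 96 without near neighbours. The most frequent class was kept by 15 to 17 of 17 gene lists under the 12 alternatives. It changed for erythroid and megakaryocyte genes under 3 of them, for the enzymes and readers of lysine 27 under 2, and for the study's 8 markers, alternative activation genes and cytokines under 1 each. Of 816 class counts of the lists, 162 moved by over 1.5 times or to or from 0.

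Median CpG ratios outside the interval of the reported median were as follows. Acetylation only gave 0.784 with 1 kb on each side, 0.785 at the start base, 0.777 upstream only and 0.751 without near neighbours. Methylation only gave 0.466 at 50% cover, 0.463 at the start base, 0.524 with the denser H3K27me3 peaks and 0.514 without near neighbours. Both marks gave 0.406 at 50% cover, 0.542 at the start base, 0.752 upstream only, 0.667 with at least 10 reads, 0.663 with any transcript start and 0.724 without near neighbours. Neither mark gave 0.293 at 20% cover, 0.333 at 50% cover, 0.310 with 1 kb on each side, 0.357 at the start base, 0.298 upstream only, 0.338 with at least 10 reads, 0.306 with at least 1 kb covered and 0.247 without near neighbours. The cause of these shifts was not tested.

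No paired analysis was possible because the replicates of each mark were merged into 1 list before deposit and the results come from no test, and for the same reason no replicate could be left out. The smallest listed peaks, of 5 and 27 reads, limit what was detectable. The depth of the libraries is unknown for both marks.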

Other observations

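Among families of at least 30 genes sharing a symbol stem, those of ubiquitin-conjugating enzymes and ribosomal proteins of the large subunit had the highest shares with both marks. In these, 7 of 39 Ube genes (17.9%) and 9 of 51 Rpl genes (17.6%) had both, against 4.60% of all genes, and 2 genes of each carried methylation only. Serine proteases of the Prss stem carried methylation only in 24 of 39 genes and cytochromes P450 neither mark in 62 of 100, with 1 and 6 genes acetylated only. Of 77 genes with the stem Il, interleukins and their receptors, 35 carried methylation only, 19 acetylation only and none both marks. Zinc finger genes of the stem Zfp carried acetylation only in 153 of 385 and methylation only in 78. On chromosome 4, 16 consecutive starts from Gm26566 to Gm13288, which include Klhl9 and the interferon gene Ifnz, carried acetylation only. Neighbouring windows in this run can share peaks, and whether its reads map uniquely was not tested. These counts were chosen after the values were seen, were not tested, and rest on symbol stems, which can join unrelated genes.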
